A study of Homo sapiens with 6 samples.

Results

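Histone genes of the clusters named HIST1 to HIST4 were read in polyadenylated RNA of 786-0 cells, a long-established line from a human clear cell renal carcinoma, with and without the DNA hypomethylating drug decitabine. All protein-coding genes whose GENCODE v28 symbol begins with HIST1H, HIST2H, HIST3H or HIST4H were taken, which gave 71 genes of 58381 in the count files: 6 of class H1, 17 of H2A, 18 of H2B, 15 of H3 and 15 of H4. The rule used symbols only and no measured value, but it was set with earlier results of these data known.

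Each of the 6 libraries came from cells labelled SETD2 KO, lacking the enzyme that trimethylates lysine 36 of histone H3. The groups were DMSO vehicle, 100 nM decitabine and 300 nM decitabine, with 2 libraries each, dosed on each of 3 days, given fresh medium on day 4 and harvested on day 5. The sources used here do not say whether the knockout is 1 clone or how the 2 libraries at each dose relate, so the p-values speak only of variation among these 6 libraries, and that variation may be technical. SETD2-intact cells are not analysed here, and every comparison is of dose within the knockout cells.

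Most histones are needed only while DNA is replicated, and their genes make messages unlike any other in the cell. The message normally has no poly(A) tail. It ends just past a short stem-loop that the stem-loop binding protein SLBP holds, and it is destroyed when S phase ends. Some of these genes can also be transcribed past the stem-loop to an ordinary polyadenylation signal, a form known from differentiated and non-dividing cells. Poly(A) selection recovers the tailed form, so the values below are levels in poly(A)-selected RNA. The share of counted reads from tailless messages carried through the selection was not measured.

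Of 58381 genes, 23160 passed the filter on low counts, among them 44 of the 71 histone genes. The other 27 had at most 47 reads summed over all 6 libraries, and 5 of them had 0 reads in every library. Libraries held 89159112 to 96646427 reads assigned to genes, of which histone genes took 4396 to 4906 reads with DMSO, 13243 to 14402 at 100 nM and 23516 to 25134 at 300 nM. Levels are given below as CPM, reads scaled to a common library size with TMM factors. A count of 0 allows up to 3 reads, or 0.03104 to 0.03365 CPM before TMM scaling, for counting error only. This bound takes reads as independent, but mates were counted separately. In each library 70.05% to 74.37% of gene counts from 1 to 10 were even. The bound is too low where both mates of a fragment were counted. Markers of kidney tubule and renal carcinoma (PAX8, PAX2, CDH6 and VIM) were all measured, with 15.3 CPM as the lowest group mean. Against DMSO the log2 values at 300 nM were -1.66 for PAX8, -0.42 for PAX2, -3.05 for CDH6 and 0.30 for VIM (adjusted p = 5.1e-10, 0.008, 2.1e-12 and 0.010). The immune marker MS4A1 had 0 reads in every library, and the summed level of 5 immune markers was 0.553 to 0.572 CPM with DMSO, 1.18 to 1.29 CPM at 100 nM and 2.32 to 2.59 CPM at 300 nM. That of 3 endothelial markers was 0.915 to 1.24 CPM, 1.39 to 1.45 CPM and 3.08 to 3.41 CPM in the same order of dose. At 300 nM both tested immune markers and 2 of the 3 endothelial markers were higher (34.8% of all tested genes). With the offsets for exon length and GC content described below, 1 immune and 1 endothelial marker were higher (28.1% of all tested genes). The part of these marker changes in the results below was not tested.

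The stem-loop could be read in the GENCODE v29 transcripts (GRCh38) of 32 histone genes, always within 100 bases after the stop codon. Among 19032 other protein-coding genes with annotated sequence there, 1 held the same motif (0.00525%), the variant H2AFX. The sites of genes that lead the results are shown because the message normally ends just past them. Capitals mark the stem-loop of 16 bases and lower case the 5 bases on either side.
HIST1H2AC, H2A: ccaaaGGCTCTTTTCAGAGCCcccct
HIST1H2AG, H2A: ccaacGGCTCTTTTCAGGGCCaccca
HIST1H2BD, H2B: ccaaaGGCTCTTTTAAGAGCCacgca
HIST2H2BE, H2B: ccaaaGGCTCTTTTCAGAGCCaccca
HIST1H3E, H3: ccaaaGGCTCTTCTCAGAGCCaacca
HIST1H4H, H4: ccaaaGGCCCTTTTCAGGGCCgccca
HIST1H4I, H4: aaaaaGGCCCTTTTTAGGGCCcctaa
These sites lie at chr6:26124669-26124684 (plus strand) for HIST1H2AC, chr6:27133515-27133530 (plus) for HIST1H2AG, chr6:26158587-26158602 (plus) for HIST1H2BD and chr1:149886188-149886203 (minus) for HIST2H2BE. The others lie at chr6:26225596-26225611 (plus) for HIST1H3E, chr6:26285131-26285146 (minus) for HIST1H4H and chr6:27139654-27139669 (plus) for HIST1H4I. In the annotated transcripts 1655 bases follow the site in HIST1H4H, 1729 in HIST2H2BE, 1761 in HIST1H2AG, 1862 in HIST1H3E, 1128 in HIST1H2AC and 212 in HIST1H4I. In HIST1H2BD 39 bases follow it, and the longer annotated transcript of that gene does not hold the stem-loop.

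Gene models differ in how much of a message they can collect. An annotated transcript ran at least 150 bases past the stop codon in 25 genes, here called long models, of which 24 held the stem-loop. AATAAA or ATTAAA lay in the last 50 bases in 20 of the 25, among them HIST1H2BJ, in which the stem-loop was not found. The stem-loop and the long end need not share a transcript: HIST1H2AC, HIST1H2BC, HIST1H2BD, HIST1H2BJ, HIST1H2BN and HIST2H2BF each have a long transcript without it. Another 11 models ended sooner, and 35 covered the coding sequence only. Of the tested genes, 22 had long models, 8 had short models and 14 had coding-only models.

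Histone RNA in the poly(A)-selected libraries was higher at each higher dose as a sum. The 71 genes together had 51.0 and 46.8 CPM with DMSO, 147 and 143 CPM at 100 nM, and 284 and 265 CPM at 300 nM. No library of one dose reached into the range of another. The mean was 275 ± 13.2 CPM at 300 nM and 145 ± 2.45 CPM at 100 nM, against 48.9 ± 3.02 CPM with DMSO (SD, n = 2 each), ratios to DMSO of 5.62 and 2.97. In bulk RNA more cells with a message and more message per cell cannot be told apart. HIST1H1C and HIST1H2BK supplied 30.7% of histone reads with DMSO, 44.9% at 100 nM and 53.0% at 300 nM.

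Of the 44 tested histone genes, 24 were higher and 1 was lower at 300 nM than with DMSO (edgeR's quasi-likelihood test, called below 0.05 after Benjamini-Hochberg adjustment over all 23160 genes), where 34.8% of all tested genes were higher and 31.1% lower. Their median log2 fold change was 1.42, against 0.046 over all genes. At 100 nM, 18 were higher and 2 lower (24.0% and 18.7% of all genes), with a median of 1.09 against 0.025. All 18 were also higher at 300 nM, and both doses share the DMSO libraries. Between the doses, 16 were higher and 0 lower at 300 nM than at 100 nM (20.0% and 23.4% of all genes), with a median of 0.70 against -0.036. At an unadjusted p under 0.05 that 0 was also 0 with edgeR, with DESeq2 and with limma. A gene can pass the filter through the group where it is high. Among the 20 genes averaging 0.5 CPM or more across the libraries, 18 were higher and 0 lower at 300 nM, and 15 and 0 at 100 nM. This average includes the decitabine libraries, so the cut does not remove that limit. In a fit of all 16298 genes above this cut, 6260 were higher and 6011 lower at 300 nM. At 100 nM these were 4372 and 4109.

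Short transcripts of other kinds were higher with decitabine too. Among 254 other protein-coding genes with under 1000 bases of exon the median log2 change came to 2.41 at 300 nM and 1.36 at 100 nM, and 68.5% and 49.2% of them were higher. With offsets that remove each library's trend over exon length and GC content, 17 histone genes were higher and 10 lower at 300 nM (28.1% and 45.8% of all genes), with a median of 0.25 against -0.34 over all genes. At 100 nM with the same offsets 13 were higher and 10 lower (26.5% and 32.4% of all genes), with a median of 0.28 against -0.12. Between the doses the offsets left 10 higher and 1 lower (13.1% and 29.5% of all genes), with a median of 0.27 against -0.20. The split of calls depends on this correction.

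**Figure D1:**
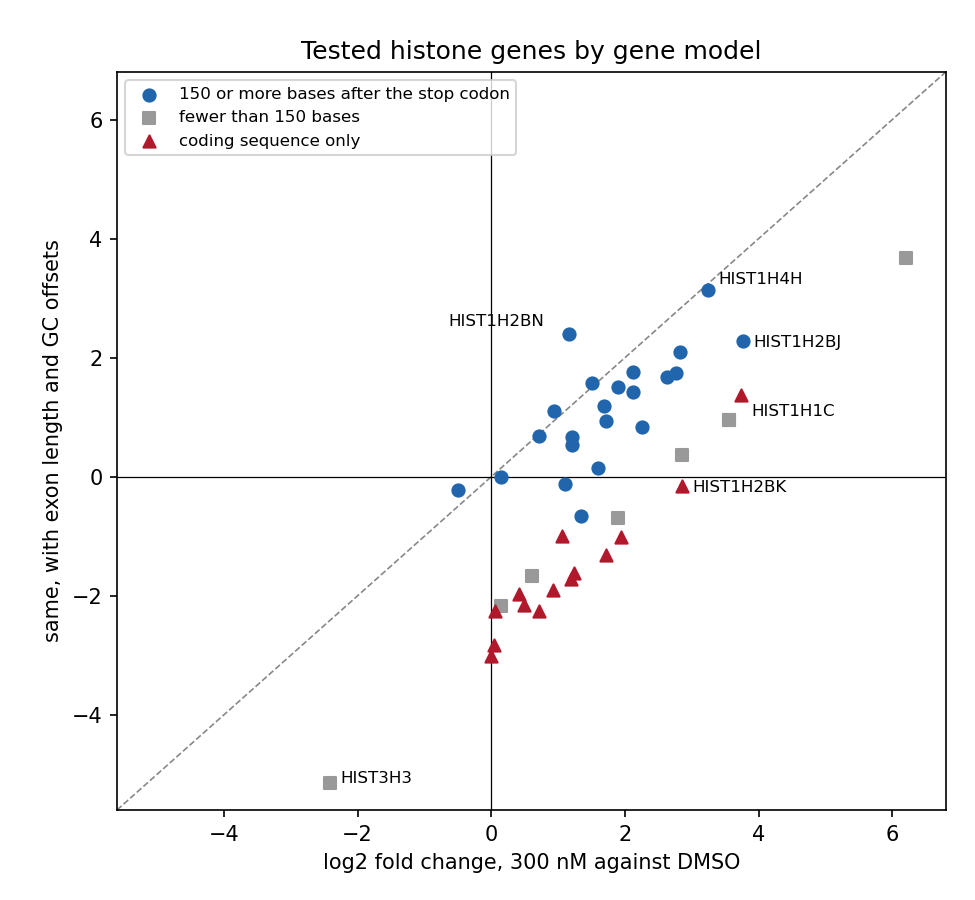
Log2 fold change of the 44 tested histone genes at 300 nM against DMSO, without (horizontal) and with (vertical) offsets for exon length and GC content, with gene models marked by shape and colour. Genes with long models lie nearest the dashed line of equal values, and short and coding-only models lie further below it: HIST1H2BK is at 2.86 without offsets and at -0.15 with them.

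Over all tested genes 34.8% were higher and 31.1% lower at 300 nM, and with offsets 28.1% and 45.8%. By model, 18 of 22 genes with long models were higher at 300 nM and 0 lower, and with offsets 15 were higher and 0 lower. Of 8 with short models, 4 were higher and 1 lower, and with offsets 1 and 3. Of 14 coding-only models, 2 were higher and 0 lower, and with offsets 1 and 7. The median log2 fold changes at 300 nM were 1.64 for long, 2.37 for short and 1.00 for coding-only models. With offsets they were 1.15, -0.17 and -1.81. The models also differed in level, with medians of 0.548, 0.405 and 0.116 CPM per kb of exon in the same order. Genes with few reads are less easily called. The offsets take the exon length of the annotated model: for HIST1H2BK that is 381 bases, while the RefSeq gene (GRCh38.p14) spans 27138293 to 27146858 on chromosome 6. The length of the RNA actually counted was not measured.

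Class H1 holds the linker histones, which bind DNA where it enters and leaves the nucleosome. Its sum was 81.9 ± 10.5 CPM at 300 nM and 30.3 ± 3.38 CPM at 100 nM, against 6.88 ± 0.799 CPM with DMSO (SD, n = 2 each). HIST1H1C (ENSG00000187837.3, chromosome 6, 26055787 to 26056428, coding-only model), a somatic linker histone, made up 98.8% of the H1 sum at 300 nM. It had 6.57 and 5.6 CPM with DMSO, 32.0 and 27.1 CPM at 100 nM, and 88.3 and 73.6 CPM at 300 nM. The doses did not overlap, and every step was larger than the gap between replicates. The log2 fold change was 3.73 at 300 nM (SE 0.15, adjusted p = 1.5e-12, edgeR quasi-likelihood test) and 2.28 at 100 nM (SE 0.14, adjusted p = 9.5e-10), and 1.37 and 0.83 with offsets (adjusted p = 9e-10 and 4.5e-07).

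The other 5 H1 genes had a sum of 0.968 ± 0.0999 CPM at 300 nM and 0.762 ± 0.0546 CPM at 100 nM, against 0.799 ± 0.106 CPM with DMSO. HIST1H1E, another somatic linker histone, had 0.499 and 0.511 CPM with DMSO, 0.428 and 0.39 CPM at 100 nM, and 0.677 and 0.444 CPM at 300 nM. Its libraries overlapped across doses, and its log2 fold change at 300 nM was 0.14 (SE 0.41, adjusted p = 0.767), or -2.18 with offsets (adjusted p = 0.00019). The testis-expressed HIST1H1T had 8 reads with DMSO, 3 at 100 nM and 7 at 300 nM and was not tested.

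**Figure D2:**
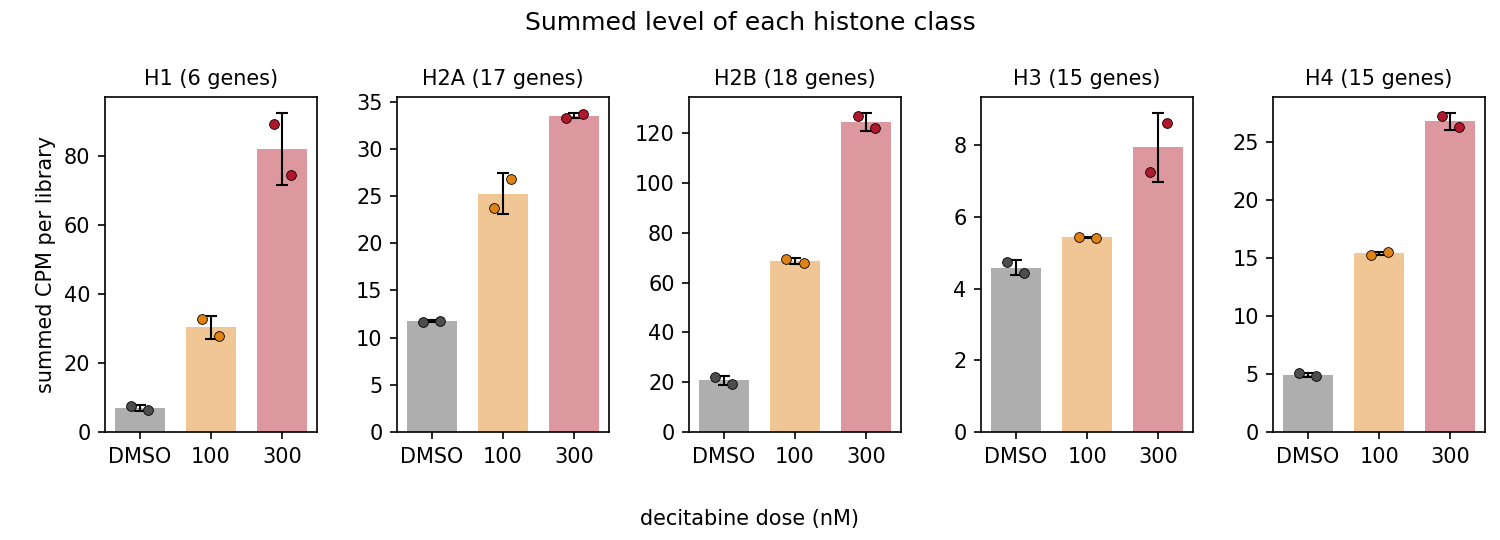
Summed CPM of each histone class in each library, by decitabine dose in nM. Bars are means of 2 libraries, error bars SD and points the libraries. H1 reached 81.9 CPM at 300 nM against 6.88 CPM with DMSO, while H3 reached 7.93 CPM against 4.58 CPM.

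Class H2B, which pairs with H2A in the nucleosome, had the highest sum at every dose and the most calls. It stood at 22.1 and 19.4 CPM with DMSO, 69.6 and 67.7 CPM at 100 nM, and 127 and 122 CPM at 300 nM. Of 14 tested genes 10 were higher at 300 nM and 8 at 100 nM (34.8% and 24.0% of all genes). At either dose 0 were lower (31.1% and 18.7% of all genes). With offsets 8 were higher and 1 lower at 300 nM (28.1% and 45.8% of all genes), and 6 and 1 at 100 nM (26.5% and 32.4%). HIST1H2BK (ENSG00000197903.7, chromosome 6, 27146418 to 27146798, coding-only model) had 10 and 7.77 CPM with DMSO, 36.7 and 34.4 CPM at 100 nM, and 66.3 and 63.4 CPM at 300 nM. The doses were separate in all libraries, with a log2 fold change of 2.86 at 300 nM (SE 0.14, adjusted p = 1.6e-11) and 2.00 at 100 nM (SE 0.14, adjusted p = 2.8e-09). With offsets these were -0.15 (adjusted p = 0.149) and 0.08 (adjusted p = 0.460). Per kilobase of exon HIST1H2BK was highest of the 71 genes at each dose, with 23.4 CPM per kb with DMSO, 93.4 at 100 nM and 170 at 300 nM. HIST1H1C came next at each dose, with 9.48, 46.0 and 126 CPM per kb. These ranks divide by the exon length of the annotated model, 381 bases for HIST1H2BK and 642 for HIST1H1C. They may not hold for the RNA actually counted, whose length was not measured.

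HIST1H2BJ (ENSG00000124635.8, chromosome 6, 27125897 to 27132750), a core H2B gene with a long model, was among the genes with the highest fold changes, close to HIST1H1C without offsets and below HIST1H4H and HIST1H2BN with them. It had 2.0 and 1.65 CPM with DMSO, 8.28 and 7.75 CPM at 100 nM, and 26.9 and 22.5 CPM at 300 nM. The groups did not overlap. The log2 fold change was 3.76 at 300 nM (SE 0.17, adjusted p = 6.3e-12) and 2.14 at 100 nM (SE 0.17, adjusted p = 1.5e-08), and with offsets 2.28 and 1.18 (adjusted p = 8.5e-10 and 2.2e-06). HIST1H2BD, which carries the stem-loop shown above, had 3.38 and 3.08 CPM with DMSO, 9.47 and 9.79 CPM at 100 nM, and 16.1 and 14.7 CPM at 300 nM. It rose at both doses, by log2 values of 2.25 at 300 nM and 1.57 at 100 nM (adjusted p = 8.4e-10 and 2e-07), and by 0.83 and 0.61 with offsets (adjusted p = 1.8e-05 and 0.00054).

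HIST2H2BE, HIST2H2BF and HIST1H2BC were higher at both doses, with no call between the doses. HIST2H2BE, an H2B gene of the chromosome 1 cluster, had 1.45 and 1.09 CPM with DMSO, 4.81 and 5.61 CPM at 100 nM, and 4.53 and 6.5 CPM at 300 nM. The 2 doses overlapped, and both lay above DMSO, with log2 fold changes of 2.12 at 300 nM (SE 0.22, adjusted p = 2.3e-07) and 2.04 at 100 nM (SE 0.22, adjusted p = 9.8e-07). The difference between the doses was 0.08 (SE 0.20, adjusted p = 0.771). With offsets it was 1.43 at 300 nM and 1.65 at 100 nM (adjusted p = 2.6e-05 and 1.1e-05). HIST2H2BF, of the same cluster, had 0.218 and 0.351 CPM with DMSO, 1.1 and 1.14 CPM at 100 nM, and 0.979 and 1.15 CPM at 300 nM. It was higher at 300 nM and at 100 nM (log2 1.90 and 1.97, adjusted p = 0.00015 and 0.00021, and 1.51 and 1.77 with offsets, adjusted p = 0.001 and 0.00049), with no call between the doses (-0.07, adjusted p = 0.884). HIST1H2BC had 0.874 and 1.28 CPM with DMSO, 2.85 and 2.65 CPM at 100 nM, and 3.01 and 3.51 CPM at 300 nM. Its values were above DMSO at both doses (log2 1.60 and 1.36 at 300 nM and 100 nM, adjusted p = 1.1e-05 and 0.00014), but with offsets neither passed (0.14 and 0.36, adjusted p = 0.588 and 0.189).

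HIST1H2BN, whose model of 5477 exon bases is the longest among the 71 genes, had 1.38 and 1.79 CPM with DMSO, 2.18 and 2.2 CPM at 100 nM, and 3.3 and 3.77 CPM at 300 nM. The libraries of the 3 doses did not overlap. It was higher at 300 nM (log2 1.16, SE 0.21, adjusted p = 0.00014) and did not pass at 100 nM (0.47, SE 0.21, adjusted p = 0.093), while with offsets it was 2.39 and 0.98 (adjusted p = 5e-08 and 0.00059). The step from 100 nM to 300 nM was 0.69 (adjusted p = 0.013), and it was lost without either 100 nM library or 300 nM replicate 2 (0.59 to 0.69, adjusted p = 0.055 to 0.063). The testis-expressed HIST1H2BA had 1 read at 300 nM and 0 in the other libraries.

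**Figure D3:**
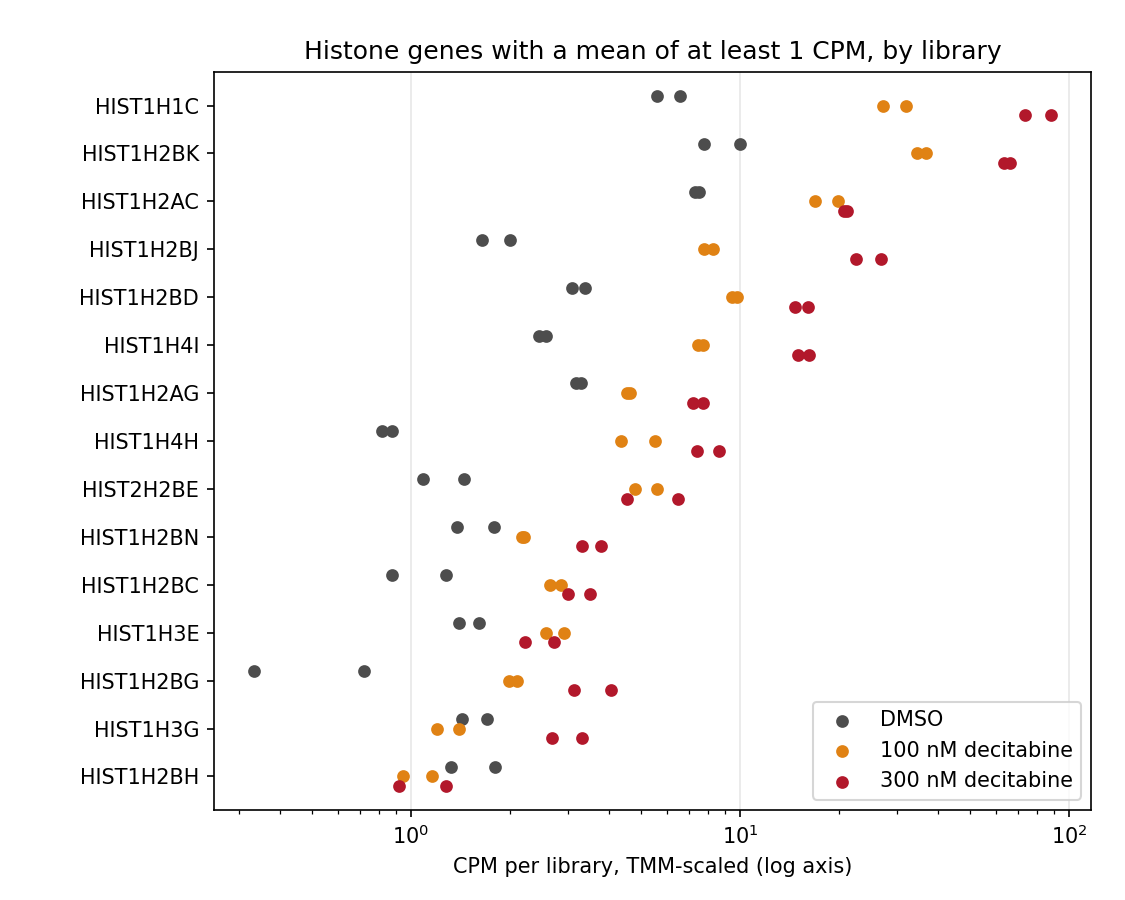
CPM in each library, on a log axis, of the 15 histone genes averaging 1 CPM or more, sorted by that average, with doses coloured. HIST1H1C reaches 73.6 and 88.3 CPM at 300 nM, and HIST1H2BH is the gene whose values with decitabine all lie below those with DMSO.

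Class H2A, the partner of H2B, had 33.5 ± 0.319 CPM at 300 nM and 25.2 ± 2.16 CPM at 100 nM, against 11.7 ± 0.0662 CPM with DMSO (SD, n = 2 each). Of 10 tested genes 6 were higher and 0 lower at 300 nM (34.8% and 31.1% of all genes). At 100 nM 5 were higher and 1 lower (24.0% and 18.7% of all genes). With offsets 3 were higher and 2 lower at 300 nM (28.1% and 45.8% of all genes), and 2 and 4 at 100 nM (26.5% and 32.4%). HIST1H2AC (ENSG00000180573.9, chromosome 6, 26124145 to 26139116) held 62.6% of the H2A sum at 300 nM. It had 7.31 and 7.49 CPM with DMSO, 16.9 and 19.9 CPM at 100 nM, and 21.2 and 20.7 CPM at 300 nM. Decitabine libraries lay above DMSO at both doses, with log2 fold changes of 1.5 at 300 nM (SE 0.14, adjusted p = 4.6e-08) and 1.32 at 100 nM (SE 0.14, adjusted p = 6.1e-07), and 1.57 and 1.18 with offsets (adjusted p = 7.1e-09 and 3e-07). The step between the doses was 0.19 (SE 0.13, adjusted p = 0.282), and 0.39 with offsets (adjusted p = 0.007).

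HIST1H2AG had 3.28 and 3.17 CPM with DMSO, 4.54 and 4.63 CPM at 100 nM, and 7.2 and 7.74 CPM at 300 nM. It was higher at 300 nM by a log2 value of 1.21 (SE 0.16, adjusted p = 4.7e-06) and at 100 nM by 0.51 (SE 0.16, adjusted p = 0.018). The call at 100 nM was lost when any 1 DMSO or 100 nM library was left out, with log2 values of 0.49 to 0.55 and adjusted p of 0.052 to 0.13. With offsets it was 0.67 at 300 nM and 0.19 at 100 nM (adjusted p = 0.00043 and 0.254).

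The chromosome 1 copies HIST2H2AA3 and HIST2H2AA4 encode the same H2A and are near identical. Reads that mapped to both were left out, so single values are uncertain. HIST2H2AA3 had 0 and 2 reads with DMSO, 22 and 27 reads at 100 nM, and 82 and 72 reads at 300 nM, and HIST2H2AA4 had 7 and 8, 43 and 28, and 81 and 87. Both were higher at both doses, with no overlap between the doses and DMSO (adjusted p at 300 nM = 1.9e-06 and 6.6e-06), and with offsets HIST2H2AA3 passed at 300 nM and HIST2H2AA4 did not (adjusted p = 0.002 and 0.091). For HIST2H2AA3 the ratio to DMSO was 76.6 at 300 nM (95% counting interval 20.8 to 638) and 24.7 at 100 nM (6.49 to 210). These intervals take mates as independent reads and so are too narrow. HIST3H2A, of the small cluster on chromosome 1, had 4 and 10 reads with DMSO, 0 in both libraries at 100 nM, and 12 and 22 at 300 nM. It was the H2A gene lower at 100 nM (adjusted p = 0.016, and 0.004 with offsets) and was named after its values were seen. The testis-expressed HIST1H2AA had 1 read at 300 nM and 0 in the other libraries.

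Class H4, which pairs with H3 at the core of the nucleosome, had 26.8 ± 0.751 CPM at 300 nM and 15.4 ± 0.12 CPM at 100 nM, against 4.95 ± 0.167 CPM with DMSO (SD, n = 2 each). Of 8 tested genes 4 were higher at 300 nM and 3 at 100 nM (34.8% and 24.0% of all genes). At both doses 0 were lower (31.1% and 18.7% of all genes). With offsets 3 were higher and 1 lower at 300 nM (28.1% and 45.8% of all genes), and 3 and 0 at 100 nM (26.5% and 32.4%). HIST1H4H (ENSG00000158406.4, chromosome 6, 26277609 to 26285638) had 0.874 and 0.819 CPM with DMSO, 4.35 and 5.53 CPM at 100 nM, and 7.38 and 8.63 CPM at 300 nM. The doses did not overlap, and the log2 fold change was 3.24 at 300 nM (SE 0.20, adjusted p = 3.7e-10) and 2.54 at 100 nM (SE 0.20, adjusted p = 2.2e-08). With offsets these were 3.13 and 2.39 (adjusted p = 9.2e-10 and 3.7e-08). The step from 100 nM to 300 nM was 0.70 (SE 0.18, adjusted p = 0.004), and without replicate 1 at 100 nM it was 0.51 (adjusted p = 0.072).

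HIST1H4I had 2.45 and 2.58 CPM with DMSO, 7.7 and 7.47 CPM at 100 nM, and 16.2 and 15 CPM at 300 nM, again with no overlap between doses. It was higher by log2 values of 2.63 at 300 nM and 1.59 at 100 nM (SE 0.16 and 0.15, adjusted p = 1.6e-10 and 2.2e-07), and by 1.68 and 0.96 with offsets (adjusted p = 1.2e-08 and 1e-05). HIST1H4I is on the plus strand at 27138588 to 27139881 of chromosome 6, inside the RefSeq span of HIST1H2BK on the minus strand. Counting did not use strand, so reads of the 2 genes cannot be told apart there.

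The copies HIST2H4A and HIST2H4B are also near identical. HIST2H4A had 30 and 14 reads with DMSO, 74 and 18 reads at 100 nM, and 114 and 16 reads at 300 nM, so replicate 1 was the higher library at every dose. HIST2H4B had 2 and 6, 6 and 20, and 32 and 22. HIST2H4A did not pass at either dose, and HIST2H4B was higher at 300 nM (log2 2.83, SE 0.90, adjusted p = 0.010), and with offsets 2.10 (adjusted p = 0.048). With offsets HIST2H4A was at 0.94 (adjusted p = 0.291).

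Class H3 had the smallest ratio to DMSO of the 5 classes, 1.73 at 300 nM. Its sum was 7.93 ± 0.952 CPM at 300 nM and 5.43 ± 0.0144 CPM at 100 nM, against 4.58 ± 0.21 CPM with DMSO (SD, n = 2 each). Of 8 tested genes 3 were higher and 1 lower at 300 nM (34.8% and 31.1% of all genes). At 100 nM 1 was higher and 1 lower (24.0% and 18.7% of all genes). With offsets 2 were higher and 4 lower at 300 nM (28.1% and 45.8% of all genes), and 1 and 3 at 100 nM (26.5% and 32.4%). HIST1H3E had 1.61 and 1.4 CPM with DMSO, 2.58 and 2.91 CPM at 100 nM, and 2.22 and 2.72 CPM at 300 nM. It was higher at both doses, by log2 values of 0.71 at 300 nM and 0.86 at 100 nM (SE 0.22 each, adjusted p = 0.008 and 0.004), and by 0.69 and 0.78 with offsets. Without DMSO replicate 2 or 300 nM replicate 2 the call at 300 nM was lost (log2 0.61 and 0.56, adjusted p = 0.069 and 0.061).

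HIST1H3G and HIST1H3H, both core H3 genes with long models, were higher at 300 nM and not at 100 nM. HIST1H3G had 1.43 and 1.7 CPM with DMSO, 1.4 and 1.2 CPM at 100 nM, and 2.69 and 3.3 CPM at 300 nM. The 100 nM libraries lay at or below the DMSO libraries, and the 300 nM libraries above all others. Its log2 fold change was 0.94 at 300 nM against DMSO (SE 0.23, adjusted p = 0.002) and 1.21 at 300 nM against 100 nM (SE 0.23, adjusted p = 0.00045), and with offsets 1.11 and 1.38 (adjusted p = 0.00025 and 0.00012). HIST1H3H had 0.728 and 0.34 CPM with DMSO, 0.336 and 0.368 CPM at 100 nM, and 1.1 and 1.19 CPM at 300 nM. Its log2 fold change was 1.10 at 300 nM against DMSO (SE 0.38, adjusted p = 0.018), 0.65 without DMSO replicate 2 (adjusted p = 0.21), 1.04 without 300 nM replicate 2 (adjusted p = 0.064) and -0.13 with offsets (adjusted p = 0.770).

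HIST3H3, the testis-expressed H3, was the histone gene lower at both doses. It had 27 and 21 reads with DMSO, 0 and 1 reads at 100 nM, and 6 and 2 reads at 300 nM. The groups did not overlap (adjusted p = 0.032 at 300 nM and 0.003 at 100 nM, and 0.00022 and 0.00019 with offsets). Against DMSO its log2 value at 300 nM was -2.42 (SE 0.94), and the call was lost without DMSO replicate 1, DMSO replicate 2 or 300 nM replicate 2 (adjusted p = 0.21, 0.13 and 0.19) and with DESeq2 (adjusted p = 0.11).

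**Figure D4:**
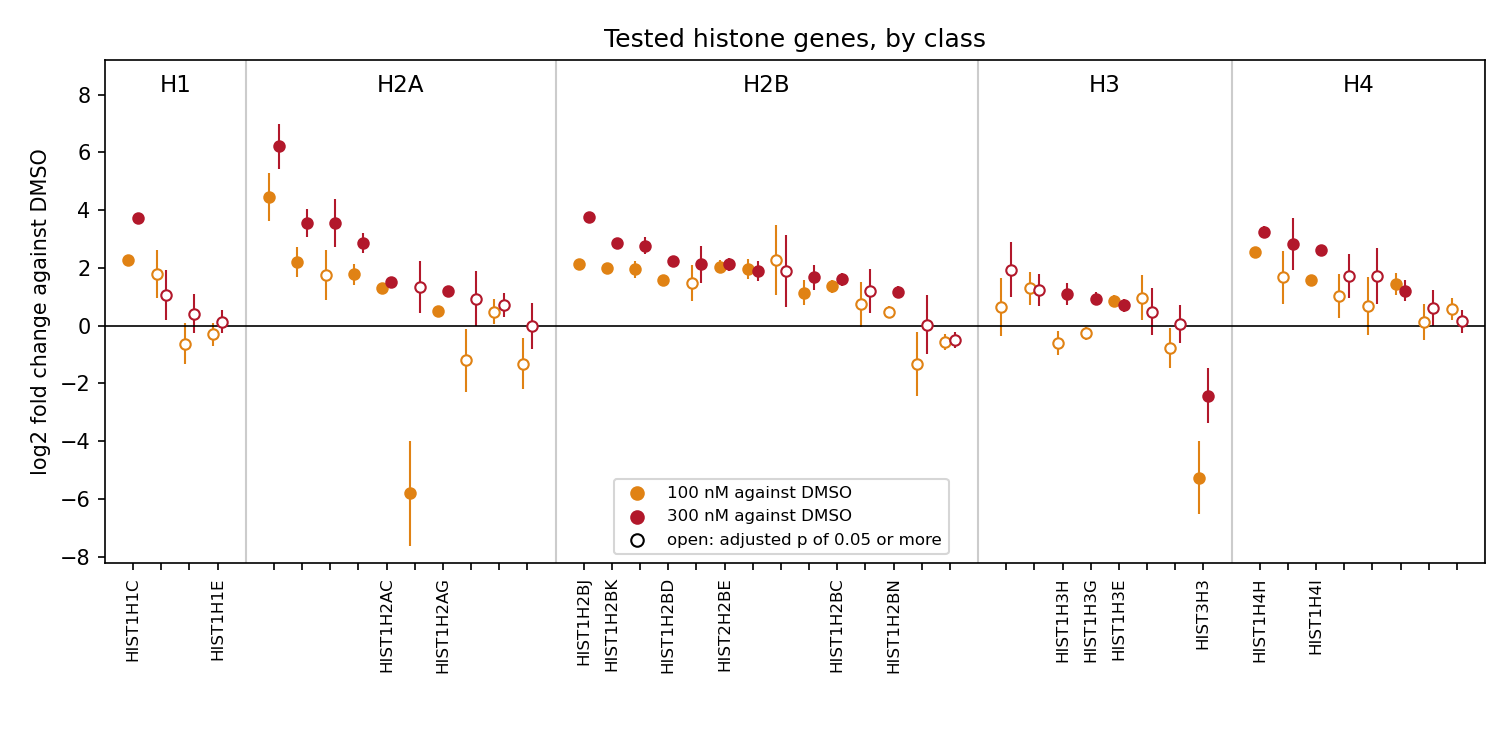
Log2 fold change against DMSO with its SE for the 44 tested histone genes, by class and sorted within each class by the value at 300 nM, with open circles for an adjusted p of 0.05 or more. In H2B 10 of 14 genes are filled at 300 nM, and in H1 HIST1H1C is the 1 gene filled at either dose. The lowest orange points are HIST3H2A, with 0 reads at 100 nM, and HIST3H3, with 1, whose fitted values are no measure of size.

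Many H2A and H2B genes lie head to head, and 12 pairs of histone genes had starts within 1000 bases of each other on opposite strands. Of the 7 pairs with both genes tested, 3 had both higher at 300 nM, and with offsets 1 of these 3 kept both calls, HIST1H2BJ and HIST1H2AG. Of all tested genes taken singly, 34.8% were higher at 300 nM, and 28.1% with offsets. No share was computed for pairs of other genes. HIST1H2BG and HIST1H2AE, with 283 bases between their starts, had 644 and 286 reads at 300 nM, against 100 and 42 with DMSO, and log2 fold changes of 2.77 and 2.85. With offsets these were unequal, at 1.75 and 0.36 (adjusted p = 8.4e-05 and 0.392). In HIST1H2BC and HIST1H2AC the values were 1.60 and 1.5, and with offsets 0.14 and 1.57 (adjusted p = 0.588 and 7.1e-09). The third such pair was unequal: HIST1H2BJ was 3.76 higher and HIST1H2AG 1.21 higher on the log2 scale, with 292 bases between their starts, and 2.28 and 0.67 with offsets. HIST1H2AH, which starts 331 bases from HIST1H2BK, had 23 reads at 300 nM, 10 at 100 nM and 25 with DMSO, where HIST1H2BK had 11491, 6785 and 1696. Its log2 fold change was -0.01 (SE 0.81, adjusted p = 0.994), and with offsets -3.01 (adjusted p = 0.004). The differences within pairs were not tested.

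**Figure D5:**
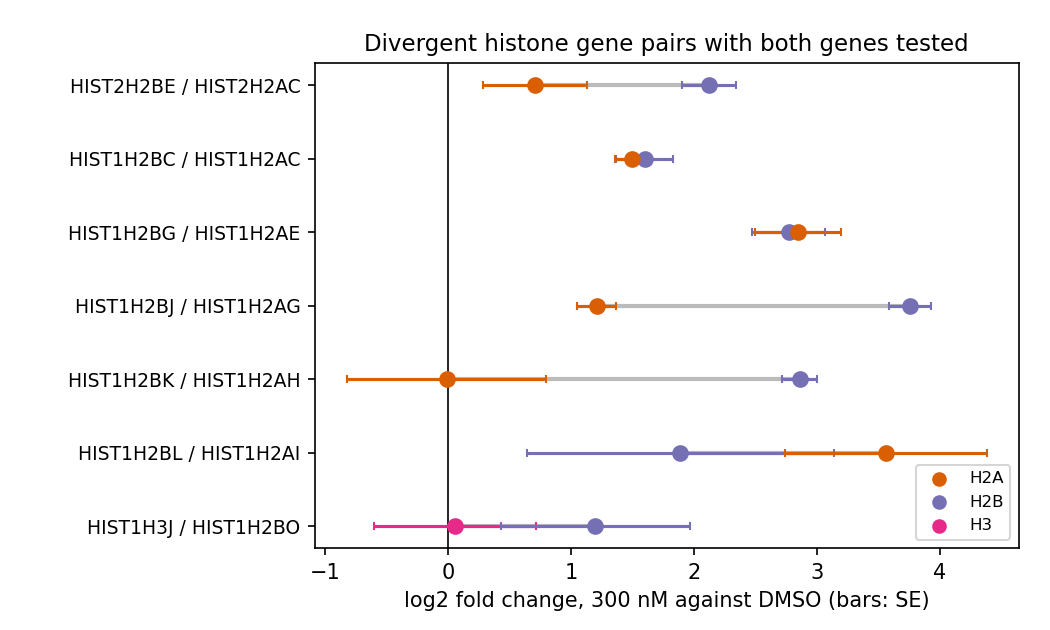
Log2 fold change at 300 nM against DMSO, with SE, of both genes of each head-to-head pair in which both were tested, coloured by class. In HIST1H2BG and HIST1H2AE the values are 2.77 and 2.85, and in HIST1H2BK and HIST1H2AH they are 2.86 and -0.01.

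Promoters were available from RefSeq (GRCh38.p14) for 66 of the 71 genes, as windows from 250 bases before the start to 50 after it. CCAAT, on either strand, was in 84.8% of histone windows against 34.6% of all 35116 promoters, and TATAAA, on either strand, in 66.7% against 11.5%. CCAAT was in all 16 H2A, all 18 H2B, all 13 H3 and all 6 H1 windows and in 3 of 13 H4 windows. The windows are not all separate sequences. HIST1H3D and HIST1H2AD have the same window, and head-to-head genes such as HIST1H2BG and HIST1H2AE have overlapping ones. CpG dinucleotides, the sites of the methylation that decitabine lowers, had a median of 11 per histone window against 14 over all promoters. They had a median of 12 (range 5 to 27) in the 24 genes higher at 300 nM and of 10 (4 to 25) in the 16 tested genes with a window and no call. Methylation itself was not measured. The 130 bases before the start of 4 genes that rose are shown to let their layout be compared, with CCAAT and TATAAA on either strand in capitals and all on the minus strand of chromosome 6.
HIST1H1C, chr6:26056471-26056600: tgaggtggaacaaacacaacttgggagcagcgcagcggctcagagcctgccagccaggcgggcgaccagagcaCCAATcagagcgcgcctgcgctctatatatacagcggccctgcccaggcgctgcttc
HIST1H2BK, chr6:27146859-27146988: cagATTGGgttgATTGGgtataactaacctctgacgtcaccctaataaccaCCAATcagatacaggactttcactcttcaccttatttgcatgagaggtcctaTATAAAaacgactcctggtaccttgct
HIST1H2BJ, chr6:27132796-27132925: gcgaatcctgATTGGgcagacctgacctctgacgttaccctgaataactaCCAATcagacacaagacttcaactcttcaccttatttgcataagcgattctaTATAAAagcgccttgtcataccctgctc
HIST1H4H, chr6:26285535-26285664: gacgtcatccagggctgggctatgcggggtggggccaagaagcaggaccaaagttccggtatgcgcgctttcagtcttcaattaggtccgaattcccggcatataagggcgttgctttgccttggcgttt
The HIST1H2BK and HIST1H2BJ stretches each hold CCAAT and TATAAA, HIST1H1C holds CCAAT alone, and HIST1H4H holds neither in these letters.

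By place, 12 of 20 tested genes in the chromosome 6 cluster up to position 26285638 and 7 of 13 from position 27125897 on were higher at 300 nM, and 5 of 8 in the HIST2 cluster on chromosome 1, against 34.8% of all tested genes. With offsets 9 were higher and 4 lower, 4 higher and 3 lower, and 4 higher and 2 lower in these 3 groups, against 28.1% and 45.8% of all genes. Sums over these 3 groups were 144 ± 8.7, 119 ± 5.34 and 10.4 ± 0.542 CPM at 300 nM, against 26.1 ± 0.725, 19.5 ± 1.89 and 2.45 ± 0.281 CPM with DMSO (SD, n = 2 each). HIST4H4, alone on chromosome 12, had a log2 fold change at 300 nM of 0.15 (SE 0.39, adjusted p = 0.747).

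Of the 71 gene models, 5 share over 80% of their exon bases with another gene, and reads in shared bases were not assigned. All but HIST1H2AM, with 3 reads, had 0 reads in every library. HIST1H2AD and HIST1H3D lie under AL031777.3, a gene model that spans several histone genes, which had 18 and 19 reads with DMSO, 59 and 36 reads at 100 nM, and 52 and 74 reads at 300 nM and was higher at both doses (log2 1.85 and 1.34 at 300 nM and 100 nM, adjusted p = 0.002 and 0.024). With offsets neither dose passed for this gene (adjusted p = 0.313 and 0.243).

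Replication-independent histone variants are mostly made also outside S phase, from messages with ordinary poly(A) tails. At 300 nM 10 of 16 tested variants were higher and 0 lower (34.8% and 31.1% of all genes). At 100 nM 5 were higher and 1 lower (24.0% and 18.7% of all genes). With offsets 10 were higher and 5 lower at 300 nM (28.1% and 45.8% of all genes). The median log2 fold change of the variants at 300 nM was 0.42, against 0.046 over all genes. H1F0, the linker histone of non-dividing cells, had 0.0416 and 0.106 CPM with DMSO, 9.8 and 11.8 CPM at 100 nM, and 24.9 and 19.7 CPM at 300 nM. The groups did not overlap, and the log2 fold change at 300 nM was 8.21 (SE 0.28, adjusted p = 2.3e-13), or 7.24 with offsets. H2AFJ, an H2A variant, had 24 and 21.1 CPM with DMSO, 40.7 and 38.9 CPM at 100 nM, and 64.2 and 52.0 CPM at 300 nM (log2 1.36 at 300 nM, adjusted p = 7.4e-08, and 1.75 with offsets). H2AFB1, a short H2A variant known from testis, averaged 5.15 CPM at 300 nM and 0.87 CPM at 100 nM, with 3 reads over both DMSO libraries (adjusted p at 300 nM = 3.9e-10, and 3.6e-07 with offsets). H2AFZ, an abundant variant of active promoters, averaged 266 CPM at 300 nM, against 297 CPM with DMSO (log2 -0.16, adjusted p = 0.155), and -0.93 with offsets.

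Counts in the lists that follow stand against all tested genes, of which 34.8% were higher and 31.1% lower at 300 nM, and 28.1% and 45.8% with offsets. At 100 nM 24.0% of all tested genes were higher and 18.7% lower, and 26.5% and 32.4% with offsets. Of 12 genes that form the histone message end, 3 were higher and 6 lower at 300 nM, and 1 and 4 at 100 nM, and with offsets 1 was higher and 7 lower at 300 nM. SLBP had 143 and 146 CPM with DMSO, 156 and 148 CPM at 100 nM, and 173 and 180 CPM at 300 nM. It was higher at 300 nM by 0.29 (SE 0.10, adjusted p = 0.016), and with offsets lower by -0.67 (adjusted p = 2.6e-07). CASP8AP2, a protein of histone locus bodies, averaged 1.71 CPM at 300 nM and 12.7 CPM at 100 nM, against 30.0 CPM with DMSO, and was lower with and without offsets (log2 -2.38 and -4.13 at 300 nM). NPAT, the activator of histone gene transcription, averaged 3.47 CPM at 300 nM and 9.96 CPM at 100 nM, against 20.3 CPM with DMSO (log2 -2.54 at 300 nM, adjusted p = 1.7e-09), and -0.87 with offsets. It belongs to a list of 7 genes of histone locus transcription, of which 3 were higher and 3 lower at 300 nM, and 0 and 3 at 100 nM, and with offsets 1 and 4 at 300 nM.

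Of 8 genes of histone message translation and decay, 2 were higher and 4 lower at 300 nM, and 1 and 3 at 100 nM, and with offsets 1 and 5 at 300 nM. XRN1, the exonuclease that degrades uncapped RNA, averaged 5.08 CPM at 300 nM, against 39.5 CPM with DMSO (log2 -2.95, adjusted p = 1e-09), and -0.98 with offsets. Of 22 chaperone and deposition genes, 5 were higher and 9 lower at 300 nM, and 0 and 10 at 100 nM. With offsets 4 were higher and 16 lower at 300 nM, and 2 and 14 at 100 nM. ATRX, which with DAXX places variant H3 at repeats, averaged 2.44 CPM at 300 nM, against 76.1 CPM with DMSO (log2 -4.95, and -2.70 with offsets). NASP, which holds soluble H3 and H4, averaged 155 CPM at 300 nM, against 324 CPM with DMSO (log2 -1.06, adjusted p = 9.5e-08), and -0.44 with offsets.

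Of 21 genes of S phase, when histone messages are normally made, 9 were higher and 6 lower at 300 nM (34.8% and 31.1% of all genes). At 100 nM 3 were higher and 5 lower (24.0% and 18.7% of all genes). Median log2 fold changes were 0.20 at 300 nM and -0.04 at 100 nM. With offsets 3 were higher and 16 lower at 300 nM (28.1% and 45.8% of all genes). TK1, thymidine kinase, averaged 587 CPM at 300 nM, against 280 CPM with DMSO (log2 1.07, adjusted p = 2.5e-07), and was lower with offsets (-0.43). CCNA2, cyclin A, averaged 63.1 CPM at 300 nM, against 124 CPM with DMSO (log2 -0.98, and -0.62 with offsets). The share of cells in S phase was not measured.

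Among 87 genes of these lists averaging 1 CPM or more, the 5 whose log2 CPM over the 6 libraries was most like the summed histone level were H2AFB1 (Pearson r = 0.993), H2AFJ (0.989), RPA2 (0.985), CSTF2 (0.971) and H1F0 (0.968). The 6 libraries share 3 doses, so these values describe a common order by dose.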

How the data were processed

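Poly(A)-enriched RNA was sequenced in 6 libraries. The deposited counts, whole reads summed by gene, were made by the authors with STAR, SAMtools and featureCounts 1.5.0-p3 on GENCODE v28 models, per the file headers and the submitters' processing notes. The recorded command has no paired-end, strand or multimapping option, so mates were counted separately and strands were not told apart. Reads in exons of 2 genes, and reads that mapped to several places, were left out. The notes name hg19 and GRCh37, but all 56933 gene identifiers shared by version with GENCODE v29 have its GRCh38 coordinates. Names came from v29 for 58261 of 58381 genes. The deposited matrix of log2 values, variance-stabilised by the authors, served as an alternative input for limma 3.58.1.

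Counts were scaled by TMM, filtered with filterByExpr and tested with edgeR 4.0.16 (R 4.3.3) quasi-likelihood, two-sided, in 1 fit of all 6 libraries with group as factor and 3 residual degrees of freedom. Benjamini-Hochberg adjustment ran over 23160 genes at 0.05. The biological coefficient of variation was 11.8%. The fit was tested on simulated data. Exon length and GC offsets were smooth trends per library over 12432 protein-coding genes (mgcv 1.9.3). DESeq2 1.42.0 was an alternative. Intervals of 95% and floors cover counting error only, since reads without molecular identifiers are not independent molecules. They make no allowance for mates counted separately.

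The histone genes, the 10 other lists and the naming rule were all chosen with earlier results of these data known. Named were the 10 histone genes with the highest mean CPM, the 4 highest and 4 lowest called fold changes per comparison above 0.5 CPM, the 2 highest of each class, the 4 testis-expressed genes and, from each other list and dose, genes among the 4 called with the smallest adjusted p. HIST2H2AA3, HIST2H2AA4, HIST3H2A, HIST2H4A, HIST2H4B, HIST1H2BG, HIST1H2AE, HIST1H2AH, HIST1H2BH, HIST2H2BF, HIST4H4, SLBP, H2AFX and H2AFZ were added after their values were seen. The result of 1 gene of the kidney marker list, and that list's counts, are not reported here.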

Additional observations from a re-analysis of the deposited data

How the results depend on the processing

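Offsets for exon length and GC content moved the results most. They gave 17 higher and 10 lower histone genes at 300 nM against DMSO (median 0.25), 13 and 10 at 100 nM (0.28) and 10 and 1 between the doses (0.27), and with the replicate block added 9 lower at 300 nM (0.24), 9 lower at 100 nM (0.29), and 10 higher and 1 lower between the doses (0.22). The cause was not tested. A filter on the mean over all libraries, which tests fewer genes, left 0 lower at either dose, with medians of 1.77 and 1.51. The genes called lower in the main fit, HIST3H3 and HIST3H2A, averaged 0.101 and 0.0876 CPM. They fell below the 0.5 CPM of that filter and were not tested there, so this 0 says nothing about them. DESeq2 left 0 lower at 300 nM and gave a median of 0.78 between the doses. Medians were 0.92, 0.66 and 0.58 with limma on the deposited matrix (300 nM, 100 nM and between the doses), 1.62 and 1.34 with counts halved, which left 1 lower at 100 nM, and 1.32 and 0.58 with total reads (300 nM and between the doses). Fitting only DMSO and 100 nM left 1 lower and a median of 1.24, and DESeq2 size factors gave 0.77 between the doses.

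Leaving out 1 library at a time gave 22 to 25 higher, 0 to 1 lower and a median of 1.40 to 1.71 at 300 nM, 16 to 18 higher, 1 to 2 lower and 0.99 to 1.25 at 100 nM, and 11 to 16 higher, 0 lower and 0.69 to 0.79 between the doses. Same-numbered libraries shared little beyond a number (correlations of deviations 0.0075 to 0.0748), and the replicate block gave 25 higher and 1 lower at 300 nM, 18 and 2 at 100 nM, and 16 and 0 between the doses.

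Signs turned for some genes with the offsets, without and with the replicate block. At 300 nM against DMSO the values were -0.15 and -0.15 for HIST1H2BK, -0.13 and -0.09 for HIST1H3H, -2.18 and -2.19 for HIST1H1E, 0.06 and 0.06 for CPSF2, -0.34 and -0.34 for CSTF2, 0.06 and 0.06 for ERI1, -0.32 and -0.32 for UPF1, 0.03 and 0.03 for POU2F1, -0.43 and -0.43 for TK1, and -0.37 and -0.37 for CD14. At 100 nM they were 0.11 and 0.11 for CPSF2, -0.17 and -0.17 for CSTF2, 0.22 and 0.22 for DCP2, 0.43 and 0.42 for XRN1, 0.04 and 0.04 for POU2F1, and -0.40 and -0.40 for TK1. Between the doses they were -0.23 and -0.23 for HIST1H2BK, -0.16 and -0.17 for CSTF2, 0.27 and 0.26 for ERI1, -0.22 and -0.22 for TONSL, -0.19 and -0.19 for LIG1, -0.03 and -0.03 for TK1, -0.25 and -0.25 for PAX2, and 0.02 and 0.02 for CDH6. The cause was not tested. With 2 libraries a group and few reads in many histone genes, a missed call does not show that a gene kept its level.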
